A study of Mus musculus with 16 samples.

Results

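The alkaline phosphatases Akp3, Alpi and Alpl were followed in GFP+ cells of the mouse duodenum, jejunum and ileum. The cells, labelled as intestinal stem cells (ISCs), came from mice after vertical sleeve gastrectomy (VSG) or sham surgery. The 3 phosphatase genes are among the 48440 genes listed in each deposited table, picked by gene symbol. Their behaviour in these libraries, the difference between VSG and sham mice and the ratio of Akp3 to Alpi along the intestine, was known when they were picked. Those values are therefore given as descriptions, with no p-value. Where a count of genes called includes one of the 3, nothing is read from it.

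Alkaline phosphatases are zinc- and magnesium-dependent enzymes that remove phosphate groups outside the cell, where a lipid (GPI) anchor holds them in the membrane. The intestinal forms sit in the brush border of absorptive enterocytes, act on nucleotides and on bacterial lipopolysaccharide in the lumen, and have been linked to fat absorption. In the mouse, Akp3 encodes the duodenal form, Alpi encodes a form made along the small intestine, and Alpl encodes the tissue-nonspecific form of bone, liver and kidney. Another gene of the family, Alppl2, encodes the embryonic form.

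The mice were female Lgr5-EGFP animals, in which the stem cell gene Lgr5 drives green fluorescent protein. All had eaten a 60% high-fat diet for 16 weeks before either operation, and tissue was taken 4 weeks later, 15 minutes after a liquid meal given to fasted mice. VSG removed 80% of the stomach, and the sham operation only pressed on it. Ages are stated only for all animals of the study, as 8 to 16 weeks, which is less than the diet and the weeks after surgery add up to, so the age of these mice at collection is not known here. Each library came from 6 cm of 1 segment of 1 mouse, sorted for GFP after immune, endothelial, apoptotic and dead cells had been gated out. There were 2 sham and 4 VSG libraries of the duodenum, the same of the jejunum from the same 6 mice, and 2 sham and 2 VSG libraries of the ileum, with 7 mice in all. A replicate number is 1 mouse within an operation, and sham and VSG mice that share a number are different animals.

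Akp3, Alpi and Alppl2 lie together on chromosome 1 and Alpl lies on chromosome 4. In GRCm38 with GENCODE M21 gene models, Akp3 spans chr1:87124973-87127912 on the plus strand and Alpi spans chr1:87098002-87101606 on the minus strand, so that both are read away from the 23.4 kb between their starts. Alppl2 spans chr1:87086694-87089928 and Alpl chr4:137741733-137796384, both on the minus strand. The coding sequences of Akp3 and Alpi were identical at 81.5% of 1656 aligned bases, and Akp3 and Alpl at 64.5% of 1543. None of the 85-base windows in the main transcript of Akp3 or Alpi, the length of 1 read, occurred in another of these genes. With up to 2 mismatches allowed, 3.63% of the Akp3 windows and 5.86% of the Alpi windows matched another of them.

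The 250 bases before the RefSeq start sites of Akp3 and Alpi (GRCm38.p6) are shown because both neighbours had lower values after VSG in the duodenum. They are read 5′ to 3′ on the strand of each gene, at chr1:87124704-87124953 for Akp3 and chr1:87101607-87101856 for Alpi. Capitals mark every exact run of at least 12 bases that both hold.
Akp3: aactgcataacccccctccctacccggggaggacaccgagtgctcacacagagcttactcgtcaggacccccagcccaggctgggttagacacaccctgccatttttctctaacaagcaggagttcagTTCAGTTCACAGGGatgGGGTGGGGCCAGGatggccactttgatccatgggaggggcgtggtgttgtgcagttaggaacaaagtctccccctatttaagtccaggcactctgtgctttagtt
Alpi: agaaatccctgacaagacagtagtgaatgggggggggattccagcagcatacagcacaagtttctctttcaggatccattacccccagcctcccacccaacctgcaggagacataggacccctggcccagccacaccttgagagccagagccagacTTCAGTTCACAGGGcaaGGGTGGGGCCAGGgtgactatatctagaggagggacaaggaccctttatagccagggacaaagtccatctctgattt

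The 2 genes shared 2 runs, in the same order and 3 bases apart. The first, of 14 bases, began at position -122 from the Akp3 start and -94 from the Alpi start, and among 32851 RefSeq promoter windows of 300 bases it occurred, on the strand of the gene, in 2, those of Akp3 and Alpi. The second, of 13 bases, was in 11 windows, the window of Alppl2 included. The TATA box letters TATAAA were sought on either strand, where 13.6% of all windows hold them. The Alpi window held them at -33 on the strand opposite to the gene, and so as TTTATA in the sequence shown. Neither gene held TATAAA on its own strand, and the Akp3 window held it on neither strand. The Alpi window also held CAAAGTCCA, a motif of the nuclear receptor HNF4, present in 0.475% of windows. GGGTGTG, a motif of Krüppel-like factors, was in the Akp3 window, on the strand opposite to the gene, and in 7.95% of all. The CDX motif TTTATG (11.9% of windows), the GATA motifs AGATAA (11.2%) and TGATAA (9.05%) and the SP motif GGGCGG (35.7%) were absent from both. These are matches of letters in 300-base windows and show neither binding nor use.

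The libraries held between 10.9 and 63.6 M implied reads, and 1 read was worth 0.586 to 2.07 normalized counts. All 12 enterocyte markers were detected in each segment, with a summed level of 350554 to 2397720 normalized counts per library, beside 6885 to 183495 for the 12 stem cell genes. In every library the enterocyte sum exceeded the stem cell sum, so the values are not taken as those of stem cells alone. The make-up of the sorted cells was not tested. Lgr5 itself was listed at 0 in sham replicate 1 of the jejunum and of the ileum. That jejunal library also had the highest enterocyte sum and the lowest stem cell sum of its segment, 18435. VSG replicate 1 of the jejunum stood apart too, with 196951 normalized counts of the ileal bile acid-binding protein gene Fabp6 where the other jejunal libraries had 15.8 to 313, and 322 of the proximal transcription factor gene Gata4 where they had 4619 to 6380.0. What many of the jejunal results become without either or both is given beside them. Leaving out both is an alternative added after the data were seen.

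In the duodenum Akp3 and Alpi were lower after VSG, whereas Alpl was low throughout, at no more than 81.1 normalized counts. Akp3 had 30914 and 29644 normalized counts in the sham mice and 6064, 3280.1, 7279 and 3816 in VSG replicates 1 to 4. The sham libraries lay close together, and the highest VSG library had less than the lowest sham library by a wide margin. The mean was 5.93-fold lower after VSG, and the log2 fold change, VSG against sham on log2(normalized count + 1), was -2.64 with a standard error of 0.33 from limma. Genes were called where p was under 0.05 and under 0.2 once adjusted, the fold change exceeded 0.5 in either direction on the log2 scale and the mean exceeded 50. Of the 16867 genes tested, 4 were called (0.0237%), and Akp3, picked for this contrast, was among them under 8 of 15 settings. It was not with a pseudocount of 0.5, without a filter, over genes with a mean above 50, at equal totals, with a replicate block, without sham replicate 2 or without VSG replicate 4.

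Alpi was the most abundant of the 3. The sham mice had 76945 and 68658 normalized counts, and VSG replicates 1 to 4 had 22048, 23623, 40213 and 30455. Again no VSG library reached a sham library. The mean was 2.503-fold lower and the log2 fold change was -1.36, with a standard error of 0.28. Akp3 and Alpi were thus both among the genes with every VSG library below every sham library, as were 8.01% of all genes tested.

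Alpl was listed at 0 and at 81.1 normalized counts in the sham mice and at 72.7, 15.9, 12.1 and 18.5 after VSG, about 16 to 77 reads where it was detected. The groups overlapped fully, and the sign of the difference turned with sham replicate 1, from 1.39 with it to -1.79 without it. Alppl2 had 186 and 312 normalized counts after sham surgery and 186, 24.0, 176 and 217 after VSG, with both groups overlapping.

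**Figure D1:**
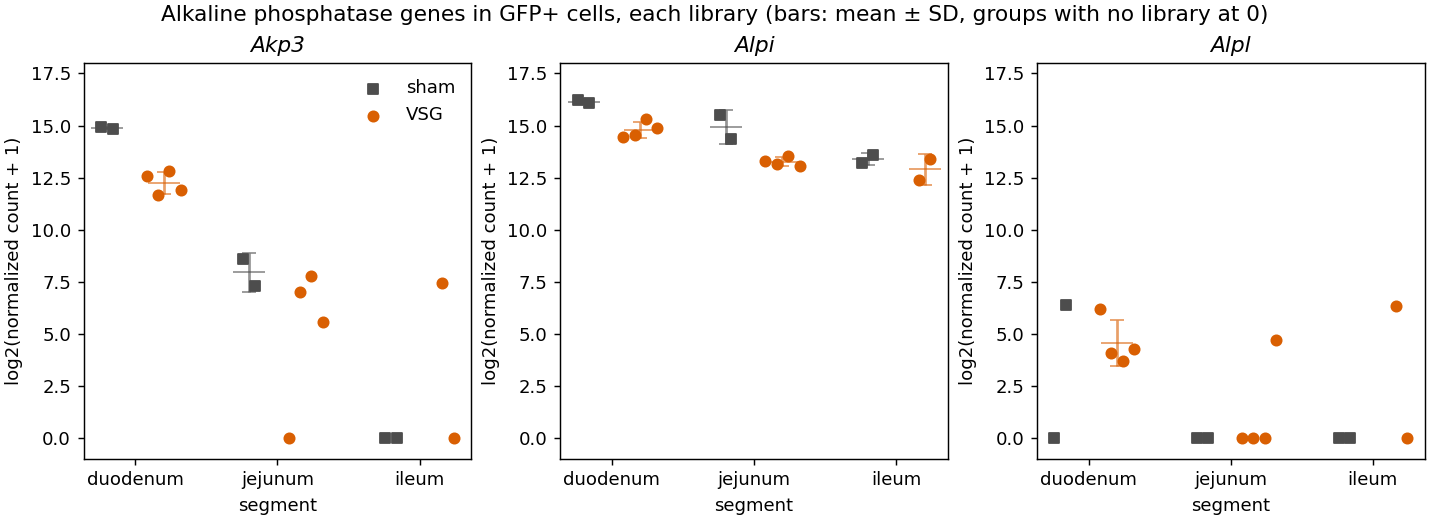
Normalized counts of Akp3, Alpi and Alpl on a log2(x + 1) scale in each sham (grey squares) and VSG (orange circles) library of each segment, with bars for the mean ± SD of groups in which no library was listed at 0. Akp3 drops from the duodenum to the jejunum in both groups, Alpi stays detected in all 16 libraries, and Alpl does not exceed 81.1 normalized counts.

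In the jejunum Akp3 was low in both groups, and Alpi was lower after VSG than after sham surgery. Akp3 had 389.9 and 157 normalized counts in the sham mice and 0, 126, 217 and 47.0 in VSG replicates 1 to 4. The groups overlapped, since VSG replicate 3 lay above sham replicate 2. The log2 fold change was -2.87 (standard error 2.38). It was -1.17 without VSG replicate 1, the library with the ileal marker, in which Akp3 was listed at 0, -2.21 without sham replicate 1 and -0.52 without both.

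Alpi had 47015 and 20838 normalized counts in the jejunum of sham mice and 10076, 9253, 11852 and 8514 after VSG. The VSG libraries lay close together and all below the sham libraries, which differed from each other by more than the VSG libraries did. The mean was 3.42-fold lower and the log2 fold change was -1.67 (standard error 0.38). It was -1.08 without sham replicate 1, the library with few stem cell transcripts, -2.25 without sham replicate 2, -1.68 without VSG replicate 1 and -1.09 without replicate 1 of both operations. Of 15857 genes tested 2 were called (0.0126%), none of them an alkaline phosphatase, and 6.21% of genes had every VSG library below every sham library. Alpl was listed at 0 in all jejunal libraries except VSG replicate 4, with 25.2 normalized counts or about 43 reads, and its mean was too low for it to be tested. Alppl2 had 60.3 and 202 normalized counts in the sham mice and 0, 0.813, 225 and 52.1 after VSG.

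In the ileum Alpi alone was detected in every library. It had 9302 and 12239 normalized counts in the sham mice and 5328 and 10859 in VSG replicates 4 and 5, and the groups overlapped. The log2 fold change was -0.49 with a standard error of 0.46. Without VSG replicate 4 it was 0.025, and without VSG replicate 5 it was -1.002.

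Akp3 and Alpl were each listed at 0 in 3 of the 4 ileal libraries and were both present in the fourth, VSG replicate 4, at 170 and 80.4 normalized counts, about 281 and 133 reads. A value of 0 allows up to 3 reads, or 2.06 to 6.21 normalized counts in those 3 libraries. The summed level of 6 proximal marker genes in VSG replicate 4 was 5655, inside the range of 3583 to 11434 of the sham libraries. Of these genes, Gata4 was highest in VSG replicate 4, at 1016.5 normalized counts. It had 942 in VSG replicate 5 and 510 and 0 in the sham libraries. Whether proximal cells were present was not tested. Alppl2 had 58.2 and 0 normalized counts after sham surgery and 2.42 and 150 after VSG. No gene was called among 13853 tested (0%) by limma, 455 had an unadjusted p under 0.05, and 11.6% had every VSG library below every sham library.

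The tables of the 3 segments were normalized separately, so levels set across them are not tested. By those levels Alpi was ordered duodenum, jejunum, ileum in sham mice, with no overlap between neighbours, and its jejunal value was below its duodenal value in 6 of 6 mice. These 6 include VSG replicate 1, whose jejunal library stood apart. After VSG the jejunal range of 8514 to 11852 and the ileal range of 5328 to 10859 overlapped. Akp3 had its highest values in the duodenum, and its jejunal and ileal ranges overlapped after VSG.

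The ratio of Akp3 to Alpi within a library does not depend on that normalization. In the duodenum Akp3 amounted to 40.2% and 43.2% of Alpi in the sham mice and to 27.5%, 13.9%, 18.1% and 12.5% in VSG replicates 1 to 4. The VSG values all lay below the sham values, and the mean log2 ratio was lower by 1.28 after VSG (difference -1.28). In the jejunum Akp3 was 0.8292% and 0.751% of Alpi after sham surgery and 0%, 1.36%, 1.83% and 0.552% after VSG, which overlapped on both sides. The mean log2 ratio differed by -1.20 there and by 0.50 without VSG replicate 1, so its direction rests on that library, and without sham replicate 1 it was -1.13. The ileal ratio was 3.19% in VSG replicate 4 and 0% in the other libraries.

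The drop from duodenum to jejunum was seen in 6 of 6 mice. The log2 ratio was lower in the jejunum than in the duodenum, with a median difference of -5.04, and 5 of the mice ranged from -5.84 to -3.30. In the other, VSG replicate 1, jejunal Akp3 was listed at 0. That library carried the ileal marker Fabp6, so a drop toward the jejunum rests on the 5 mice. With Akp3 at its limit of 3 reads the difference was -8.97, so the value is -8.97 or lower. In the mouse with ileal Akp3, VSG replicate 4, Akp3 was 12.5% of Alpi in the duodenum, 0.552% of it in the jejunum and 3.19% in the ileum.

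**Figure D2:**
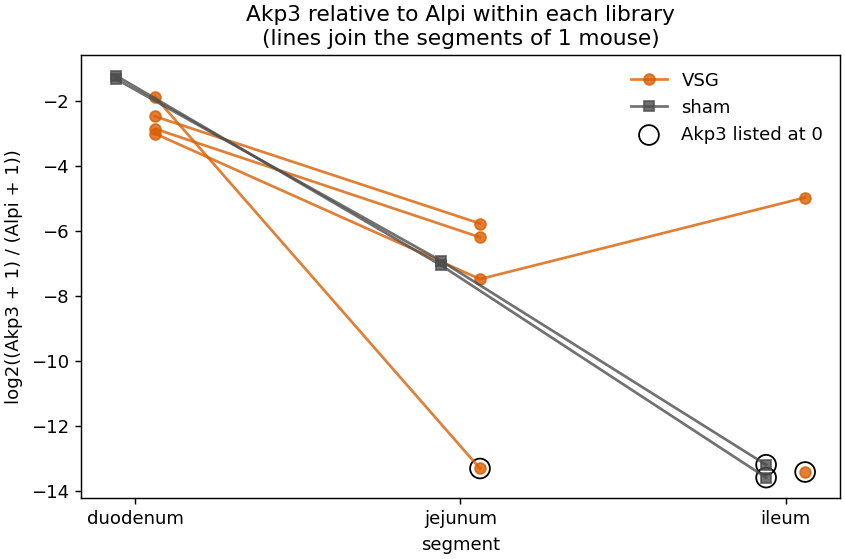
The log2 ratio of Akp3 to Alpi, each with 1 normalized count added, in each library of the 3 segments, with lines joining the libraries of 1 mouse (grey sham, orange VSG) and rings where Akp3 was listed at 0. All lines slope down from duodenum to jejunum, with differences of -3.30 to -5.84 in the 5 mice with jejunal Akp3, ringed points are placed by the added count alone, and the line of VSG replicate 4 turns up toward the ileum.

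Levels of different genes were compared per kb of the main transcript, 1680 bases for Akp3 and 2337 for Alpi. Alpi exceeded Akp3 per kb in every library. In the duodenum the excess was 1.79- and 1.66-fold in the sham mice, and 2.61-, 5.18-, 3.97- and 5.74-fold in VSG replicates 1 to 4. Where Akp3 was detected in the jejunum, Alpi was 39.2- to 130-fold higher per kb.

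Enterocyte transcripts as a whole were also lower after VSG, and in RNA of sorted cells fewer cells of a type and less RNA per cell cannot be told apart. The summed level of 12 enterocyte markers, which hold no alkaline phosphatase, was 1198500 and 771223 in the duodenum of sham mice and 350554 to 741823 after VSG, with no overlap. Its log2 fold change was -0.84 there. In the jejunum it was -0.996, with overlap between the groups, and -0.30 without sham replicate 1, -0.93 without VSG replicate 1 and -0.23 without both. In the ileum it was -0.44, again with overlap. Relative to that sum, an alternative added after the data were seen, the log2 fold change of Akp3 was -1.80 in the duodenum and that of Alpi was -0.52.

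Akp3 made up 2.58% and 3.84% of the enterocyte sum in the duodenum of sham mice and 1.73%, 0.505%, 0.981% and 0.782% after VSG, without overlap. For Alpi these shares were 6.42% and 8.90% against 6.29%, 3.64%, 5.42% and 6.24%, where the highest VSG library lay just below the lowest sham library. In the jejunum the Alpi share was 1.96% and 2.27% after sham surgery and 1.56%, 0.849%, 1.94% and 1.19% after VSG, a log2 difference of -0.67, which was -0.78 without sham replicate 1, -0.75 without VSG replicate 1 and -0.86 without both. In the ileum the log2 difference was -0.04. The summed level of 6 tuft cell markers moved the other way in the duodenum, with 5006 to 11336 normalized counts after sham surgery and 15227 to 31302 after VSG. Tuft cells are named because these groups did not overlap, whereas they did in the jejunum and ileum. The duodenal sums of goblet, Paneth, enteroendocrine and immune markers overlapped between the operations. The part of cell composition in the alkaline phosphatase values was not tested.

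**Figure D3:**
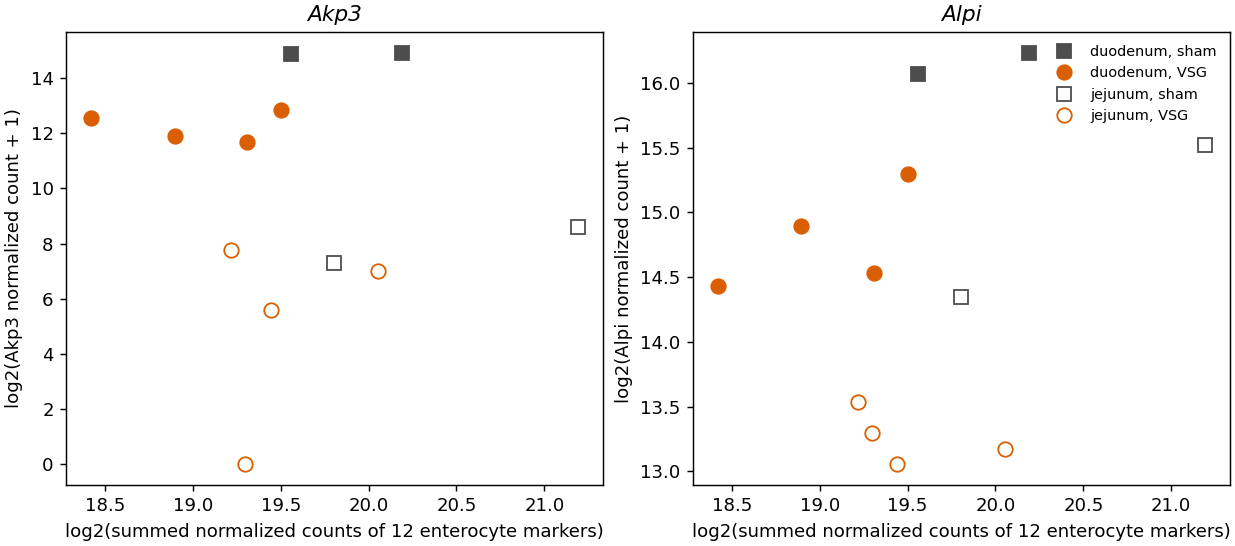
Akp3 (left) and Alpi (right), as log2(normalized count + 1), against the log2 summed normalized counts of 12 enterocyte markers in each duodenal (filled) and jejunal (open) library of sham (squares) and VSG (circles) mice. In the duodenum the VSG libraries lie lower on both axes than the sham libraries, with a log2 difference of -0.84 in the marker sum, -2.64 in Akp3 and -1.36 in Alpi.

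The genes that followed Alpi most closely were sought by Pearson's r of log2(normalized count + 1), centred within each segment, over the 16 libraries and 10711 genes with a mean above 50 in each table. Alpi was the only one of the 3 with such a mean. The 5 closest were Aldh1a1, a retinaldehyde dehydrogenase (r = 0.951), Cyp2j6, a cytochrome P450 (0.949), Phospho1, a phosphatase of phosphocholine and phosphoethanolamine (0.936), Fabp2, the intestinal fatty acid-binding protein (0.935), and Slc6a20a, an imino acid transporter (0.931). The points share their libraries and the 2 operations, so these values describe the set and carry no test. All 5 stayed among the closest without VSG replicate 1 of the jejunum, and 2 of them, Aldh1a1 and Phospho1, by Spearman's rho.

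Aldh1a1 had 14221 and 12507 normalized counts in the duodenum of sham mice and 1895, 2116, 4281 and 1926 after VSG. As with Alpi, VSG replicate 3 was the highest of its group and no VSG library reached a sham library. Phospho1 had 4774 and 3318 after sham surgery and 618, 1218, 1782 and 1414 after VSG in the duodenum, and 7343 and 2198 against 738, 974, 563 and 828 in the jejunum, where sham replicate 1 was again far above sham replicate 2. Akp3 and Alpi themselves had an r of 0.93 over the 6 duodenal libraries, 0.50 over the 6 jejunal libraries and 0.24 over all 16.

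Genes tied to these enzymes were taken from lists written with earlier results of these data known, and counted by an unadjusted p under 0.05 in limma. With trend and all libraries, no gene of these lists was called in any segment. Without trend, 2 list genes were called in the ileum, among 463 calls. The backgrounds over all genes tested were 3.48% lower and 2.79% higher after VSG for duodenal libraries, 2.4% lower and 3.63% higher for jejunal libraries, and 1.19% lower and 2.09% higher for ileal libraries. The median log2 fold change of all genes was 0.01, 0.11 and 0.24.

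Of 30 brush border and absorption genes of the enterocyte, 13 were lower after VSG in the duodenum and 0 higher, with a median log2 fold change of -0.72. The largest difference among these was in Enpp7, the alkaline sphingomyelinase, with means of 1466 after sham surgery and 172 after VSG (log2 fold change -2.92). Lct, the lactase gene, followed (-1.91), and the amino acid transporter gene Slc6a19 (-1.51) and Fabp2 (-1.50) had the lowest p in the list, with an adjusted p of 0.292 in limma. The 2 most abundant genes of the list did not pass, with log2 fold changes of -0.69 for the aminopeptidase gene Anpep and -0.84 for the apolipoprotein gene Apoa1. In the jejunum 7 of 30 were lower and 0 higher, with a median of -0.90. Without sham replicate 1 the jejunal count was 0 and the median -0.25, without VSG replicate 1 they were 7 and -0.80, and without both they were 1 and -0.09. In the ileum 3 were lower and 0 higher, with a median of -0.11.

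Among 18 genes that handle luminal nucleotides, pyrophosphate and phosphate, the substrates and products of alkaline phosphatases, 17 were tested in the duodenum and 3 were lower, with a median of -0.19. These 3 were Enpp3, a nucleotide pyrophosphatase of the cell surface (-2.27), Phospho1 (-1.76) and Slc20a2, a phosphate transporter (-1.20). In the jejunum 3 of 17 were lower, Enpp3 (-2.47), Phospho1 (-2.40) and the nucleoside transporter gene Slc28a2 (-5.26), with a median of -0.37. Without VSG replicate 1 the same 3 were lower, and Entpd3, also of this list, was higher (6.10). Without sham replicate 1, and also without both doubted libraries, Phospho1 was the 1 that passed, at -1.53 and -1.51. Enpp3 was then -2.17 and -1.70. Enpp3 had 2501 and 1188 normalized counts in the duodenum of sham mice and 242, 367, 488 and 368 after VSG, with no overlap. In the ileum it was listed at 0 except in VSG replicate 4, at 141, the library in which Akp3 and Alpl were also detected. The ileal phosphate transporter gene Slc34a2 was the 1 of 15 that was lower there, with a log2 fold change of -1.0003 and a mean of 14406 after sham surgery against 7157 after VSG. Pnp, the most abundant of the list, differed by -0.19, 0.23 and -0.30 in the 3 segments and did not pass.

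Transcription factors of the enterocyte program were another list, beside 3.48% of all genes lower in the duodenum and 2.4% in the jejunum. Of 20, Ppara, a lipid-sensing nuclear receptor gene, was the 1 that was lower in the duodenum (-2.43). Its duodenal values were 7862 and 1674 in the sham mice and 229, 1343, 464 and 1440 after VSG. Sham replicate 2 thus lay near VSG replicates 2 and 4. Ppara (-1.64), Creb3l3 (-1.37) and Hnf4g (-0.97) were the 3 that were lower in the jejunum. None of these 3 passed without sham replicate 1, at -1.08, -0.72 and -0.35, and without VSG replicate 1 Ppara alone did among them, at -1.38. None of 19 passed in the ileum. The most abundant, Hnf4a and Elf3, did not pass, with log2 fold changes of 0.34 and 0.19 in the duodenum and of 0.37 and 0.42 in the jejunum. Of 11 genes that supply zinc, 0 passed in the duodenum, and the transporter gene Slc39a7 was higher in the jejunum (0.93). Slc39a7 was 1.56 without sham replicate 1, 1.02 without VSG replicate 1 and 1.65 without both. In the ileum the metallothionein genes Mt1 (1.79) and Mt2 (2.25) were higher and the zinc importer gene Slc39a4 was lower (-1.33). Of 24 genes for making and attaching the GPI anchor, Pign was higher in the jejunum (2.62) and 0 passed in the other segments. Pign was 2.05 without sham replicate 1, 2.33 without VSG replicate 1 and 1.76 without both. The medians of the 24 genes, 0.03, 0.26 and 0.32, lay near those of all genes. Without the same libraries the jejunal median was -0.01, 0.10 and -0.23. The most abundant, Pigt, had log2 fold changes of 0.10, 0.18 and -0.41.

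Of 12 stem cell genes, Msi1 was higher in the duodenum (1.33) and 0 passed in the jejunum. Of 11 tested for the ileum, Olfm4 was higher (2.14). The medians of this list, from duodenum to ileum, were 0.28, 0.97 and 1.65, against 0.01, 0.11 and 0.24 over all genes. The jejunal median was -0.16 without sham replicate 1, 1.01 without VSG replicate 1 and -0.17 without both. The summed level of the 12 genes had log2 fold changes of 0.15, 0.78 and 1.08 in the same order. Its groups overlapped except for the ileum, with 6885 and 10209.5 normalized counts after sham surgery and 21006 and 15013 after VSG. Fabp1 (-0.91) and Slc40a1 (-2.72) were the 2 of 6 proximal markers that were lower in the duodenum. For the jejunum 0 of 5 passed, and for the ileum 0 of 4. Of 6 distal markers 0 passed in the duodenum, Cubn (-2.23) was lower and Fgf15 (5.97) higher in the jejunum, where VSG replicate 1 carried the ileal profile, and Cubn (-1.28), Fabp6 (-1.87) and Slc10a2 (-1.88) were lower in the ileum. Without that jejunal library Cubn was -2.99 and Fgf15, at 4.31, did not pass, and without sham replicate 1 neither did, at -1.38 and 3.15. Without both, Cubn was called, at -2.13 with an adjusted p of 0.137 in limma. Genes named for these counts were chosen after their values were seen. Over the lists 19 genes passed for the duodenum and 17 for the jejunum. Without sham replicate 1 these counts were 11 and 4, and for the jejunum it was 34 without sham replicate 2, 16 without VSG replicate 1 and 6 without replicate 1 of both.

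**Figure D4:**
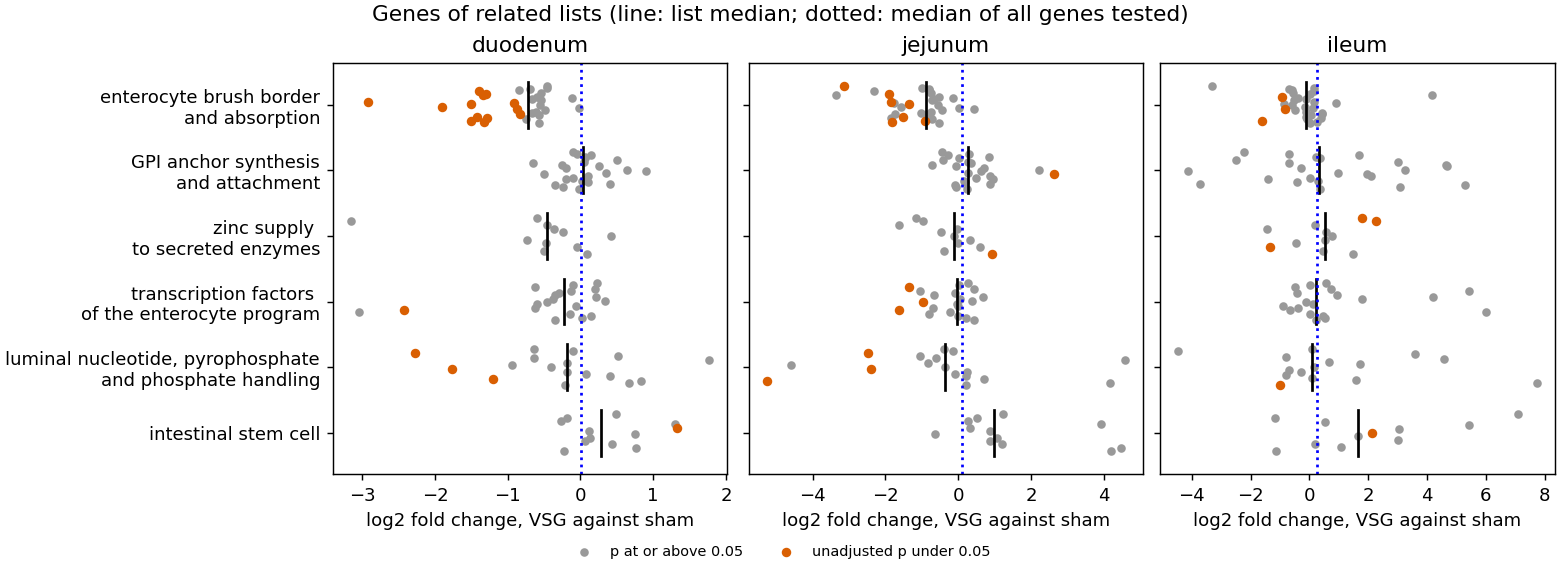
Log2 fold changes of VSG against sham for each tested gene (points) of 6 related lists in the 3 segments, orange where the unadjusted p in limma was under 0.05, with black lines at each list median and a dotted line at the median of all genes tested. In the duodenum 13 of the 30 enterocyte genes are orange and all to the left of 0, and the GPI anchor genes are centred on 0.03.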

How the data were processed

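Gene expression was measured by RNA-Seq (single-end reads of 85 bases). The authors mapped reads to mm10 with STAR 2.5.3a, quantified transcripts with Salmon 0.6.0, and deposited signal values, DESeq2-normalized counts scaled within each segment. Libraries with low mapping were excluded by the authors, 1 sham library per segment and 2 VSG libraries of the ileum. The deposited tables of fold changes and p-values were not used. As the signal values are not whole counts, limma 3.58.1 in R 4.3.3, with trend, was fitted per segment to log2(normalized count + 1) of genes whose mean exceeded 10, with Benjamini-Hochberg adjustment, and tested on simulated data. Implied reads are values divided by the most frequent low nonzero value of a library, taken as what 1 read was worth. Limits from counts cover counting error only.

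The 3 genes and all lists were chosen with earlier results of these data known. Named are the members and Alppl2, the 5 genes most like a member with a mean above 50, the most abundant genes of each list, regional markers of libraries that stood apart, and others as stated. Alternatives were other pseudocounts, filters and scalings, limma without trend, omission of each library in turn and of 2 jejunal libraries together, and a replicate block. Promoters came from RefSeq and gene models from GENCODE M21. Python 3.11.15 with numpy 2.4.6, pandas 2.3.3, Biopython 1.88 and matplotlib 3.10.9 was used.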

Additional observations from a re-analysis of the deposited data

Results flagged for a closer look

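Dixon's criterion was applied 22 times, to several quantities in the 4 VSG libraries of the duodenum and the 4 of the jejunum. In 3 of these tests a library lay far from the others. A single test gives this by chance about 1 time in 20, but the 22 share their libraries and are not independent. Alpl in the duodenum was 72.7 normalized counts in VSG replicate 1, against at most 18.5 in the other VSG libraries. Alpl in the jejunum was 25.2 in VSG replicate 4 and listed at 0 in the others, where any value above 0 meets the criterion. The summed level of 6 distal markers in the jejunum was 244897 in VSG replicate 1, against at most 42102 in the other VSG libraries.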

How the results depend on the processing

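With 2 sham libraries per segment, the number of genes called depended on the setting. In the duodenum 4 genes were called. The count was 0 with a pseudocount of 0.5, without a filter, over genes with a mean above 50, at equal totals and with a replicate block, 10 with a pseudocount of 10 and 43 without trend. In the jejunum 2 were called, 61 without trend and 0 with the block, and in the ileum 0, with 3 at a pseudocount of 10 and 463 without trend. Leaving out single libraries gave 0 to 259, 1 to 2710 and 0 to 631 calls, and 11 to 22, 4 to 34 and 8 to 14 genes of the related lists at an unadjusted p under 0.05. The ileal calls, 625 and 631, came without VSG replicates 4 and 5, with 0 without either sham library. Where this left a lone library, sham or, in the ileum, VSG, it is assumed to vary like the other group. Akp3 was called in the duodenum under 8 of 15 settings and Alpi under 0. Of 28 settings in the other segments, Akp3 and Alpi were called only where a group was left with a lone library. The alkaline phosphatases were picked with these contrasts known, so nothing is read from these calls. Without replicate 1 of both operations, added after the data were seen, the jejunum had 48 calls, 6 list genes and an Alpi of -1.09. The cause of these shifts was not tested.

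In the duodenum the log2 fold changes of Akp3 and Alpi were negative under 12 of 12 alternatives, from -2.84 to -1.80 and from -1.67 to -0.52. The values nearest to 0, -1.80 and -0.52, were those relative to the enterocyte markers, as was -0.67 for Alpi in the jejunum. Leaving out single libraries gave -2.84 to -2.45 for Akp3 and -1.53 to -1.24 for Alpi in the duodenum, and -3.76 to -1.17 and -2.25 to -1.08 in the jejunum. It gave -1.79 to 4.57 for Alpl in the duodenum, and in the ileum 0 to 7.42 for Akp3, -1.002 to 0.025 for Alpi and 0 to 6.35 for Alpl, where 1 library decided the value. By Spearman's rho 2 of the 5 genes closest to Alpi stayed. With the replicate block, Akp3 was -2.76 and Alpi -1.67 in the duodenum, and -4.46 and -1.70 in the jejunum. Same-numbered sham and VSG mice are different animals, with correlations of deviations from -0.067 to 0.053, so the number was not used as a pairing. The ileal block could not be fitted because no number is shared.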
